A study of Mus musculus with 6 samples.

Results

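The proteasome subunit genes are the 39 mouse genes on the array whose symbol is Psma, Psmb, Psmc or Psmd followed by a number, out of 18193 genes with a probe set annotated to a single gene. The brightest probe set, by mean signal over the 6 arrays, stood for each gene. The 39 genes divide into 19 core particle genes (Psma and Psmb) and 20 regulatory particle genes (Psmc and Psmd), and they carry 78 probe sets. Of the 39, 35 had a mean signal over 23.4, which is the median of that mean over probe sets, and were tested. The other 4 genes, Psma8, Psmb8, Psmb9 and Psmb11, were below it.

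The cells were C2C12 myoblasts, an established mouse line of cells that can form skeletal muscle, carrying an inducible construct for integrin alpha7, a laminin receptor subunit of muscle. One group of 3 samples was labelled induced and had received 1 µg/ml tetracycline; the other 3 samples were noninduced and had received none. Both groups carried the construct and stayed undifferentiated over 36 h of culture with 20% fetal bovine serum and 0.5% chick embryo extract. Each sample was hybridised to 1 array, and the series calls the 3 samples of a condition biological replicates. Neither the construct's promoter nor the number of clones is given in the sources used here. A line without the construct was not among the samples, so effects of tetracycline itself and of induction cannot be told apart.

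The proteasome is the main protease of the cytosol and nucleus. Its core particle is a barrel of stacked rings: Psma genes encode the alpha subunits of the outer rings, which gate entry, and Psmb genes the beta subunits of the inner rings, some of which cut peptide bonds. The regulatory particle caps the barrel; its base holds the ATPases (Psmc), which unfold substrates, and its lid (most Psmd subunits) removes ubiquitin chains. In muscle the proteasome degrades myofibrillar and regulatory proteins, and subunit genes are known to rise together when NRF1, the product of Nfe2l1, is activated by loss of proteasome activity.

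Itga7, the gene the construct was meant to raise, had signals of 675, 727 and 676 on induced replicates 1, 2 and 3, and 811, 778 and 786 on noninduced replicates 1, 2 and 3. The means were 693 ± 29.9 on the arrays labelled induced and 792 ± 17.2 on the noninduced arrays (SD, n = 3 each). It was thus not higher on the arrays labelled induced (log2 difference -0.19, SE 0.058, limma adjusted p = 0.181). Whether its probe set can detect the construct was not settled, so every direction below rests on the labels. The 6 myoblast markers were all above the signal filter, with summed signals of 6206 to 6488 on the arrays labelled induced and 6666 to 6759 on the noninduced arrays. Of the markers of other cell types, 0 of 4 endothelial, 2 of 4 epithelial, 2 of 4 immune and 2 of 6 myotube genes passed the filter. Their summed signals overlapped between the groups in the epithelial (103 to 119 against 97.2 to 131), immune (59.3 to 68 against 56.1 to 83.5), endothelial (27.3 to 34.4 against 32 to 43.7) and myotube lists (451 to 526 against 479.9 to 526). All of these markers were dim except the myotube genes Acta1 and Actn3. Acta1 averaged 192 on the arrays labelled induced and 159 on the noninduced arrays, without overlap (limma adjusted p = 0.31). Of all genes tested, 10.7% were higher without overlap. Actn3 averaged 267 and 294 in that order, with overlapping groups. The ratio of 3′ to 5′ probe sets did not overlap for Gapdh (0.761 to 0.782 on arrays labelled induced, 0.788 to 0.802 on noninduced arrays) or Actb (1.12 to 1.14 against 1.1 to 1.11). The part of the myoblast markers, of Acta1 and of these ratios in the values below was not tested. By their hybridisation times, induced replicates 2 and 3 were in a second fluidics run, and all other arrays in the first. The noninduced arrays were scanned 1st to 3rd and the arrays labelled induced 4th to 6th. Scan order and group therefore cannot be told apart, within the first run as well.

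No proteasome subunit gene passed the test. Of the 35 tested, 0 had an adjusted p under 0.05 in limma, the smallest being 0.158 for Psmb2; over all probe sets tested the same rule called 0.200% (45 of 22518). In place of 45 there were 0 calls when induced replicate 1 was left out, 11 for induced replicate 2, 1 for noninduced replicate 2 and 8 for noninduced replicate 3, and the members' count was 0 each time. At an unadjusted p under 0.05 there were 4 members lower (Psmb2, Psmb6, Psmd3 and Psmd9), or 11.4%, against 7.99% of all 10775 genes tested. The single member higher by that rule was Psmd11, or 2.86% of members, against 7.96% of all genes tested. All log2 differences lay between -0.20 (Psmd9) and 0.14 (Psmc4), against -1.18 to 1.03 over all genes tested.

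The subunit genes were measured with little spread between arrays. The median coefficient of variation over members was 2.89% on the arrays labelled induced and 3.01% on the noninduced arrays; over all genes tested it was 7.66% and 7.77%. The median SE of a member's log2 difference was 0.050, against 0.098 over all genes tested. Members tested were bright, with a median of 2595 for their mean signals. They were not compared with other genes of similar signal. How much of the smaller spread goes with brightness was therefore not tested. In all 35 members the 95% interval of the difference lay within 1.5-fold in both directions. Psmc4 had the widest interval and the highest coefficient of variation in both groups (18.1% and 12.7%).

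**Figure D1:**
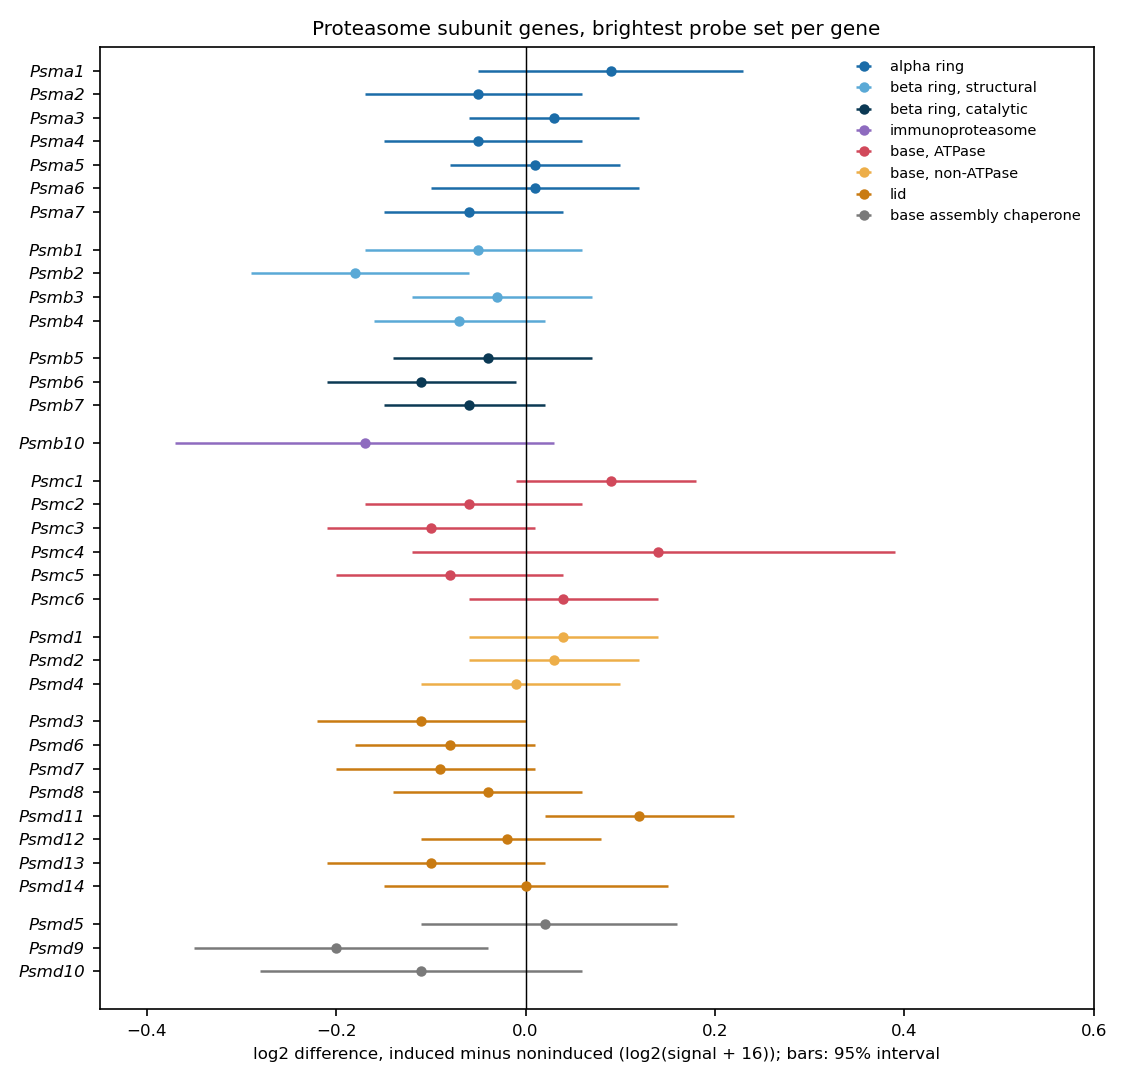
Log2 difference of each tested proteasome subunit gene (x axis, induced minus noninduced, on log2(signal + 16)), grouped by role down the page; points are limma estimates from 3 arrays a group and bars are 95% intervals. All 35 points lie between -0.20 and 0.14, and 5 intervals exclude 0 (Psmb2, Psmb6, Psmd3, Psmd9 and Psmd11).

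Most members lay slightly below 0 in the deposited scaling, and that direction turned with the scaling. The median log2 difference of the 35 members was -0.048, with 23 negative (65.7%), against a median of -0.01 and 52.2% negative over all genes tested. All arrays labelled induced were below all noninduced arrays in 12 members (34.3%), against 11.6% of all genes tested, and above them in 3 members (8.57%), against 10.7%. With the arrays centred on their medians, the members' median was 0.045, and the median of all genes tested was 0.08. Then 9 of 35 members were negative, against 3094 of all 10775 genes tested, so the larger share of negative members was gone. Of the members, 0 had all arrays labelled induced below all noninduced arrays (3.24% of all genes did), and 7 (20.0%) had them above (22.2% of all genes). Among members with no overlap in the deposited scaling, median centring put Psmb2 and Psmb10 at -0.08, Psmb6 and Psmd3 at -0.02, Psmc3 at -0.01, Psmd9 at -0.10 and Psmd11 at 0.21. It turned the sign of Psma7 (0.04) and Psmb7 (0.03), which had been negative. Other members without overlap are not listed. With quantile normalization 11 were below and 1 above, close to the deposited scaling. The members' median lay under that of all genes tested in the deposited scaling and with quantile normalization (-0.05 against -0.01). Median centring moves every log2 difference by the same amount. The same order after that centring was therefore fixed in advance and adds no evidence.

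Core and regulatory particle genes were set side by side. The median log2 difference was -0.054 for the 15 core genes tested and -0.026 for the 20 regulatory particle genes, a difference of medians of -0.028. Per array, the median deviation of core genes from their own 6-array means was -0.011, -0.062 and -0.027 on induced replicates 1, 2 and 3, and 0.046, 0.013 and 0.008 on noninduced replicates 1, 2 and 3. For regulatory particle genes it was -0.017, -0.011 and -0.001 on the arrays labelled induced, and 0.031, 0.024 and 0.011 on the noninduced arrays. Both particles were thus lower on every array labelled induced in the deposited scaling (after median centring both medians were positive, 0.039 and 0.067). The core value minus the regulatory particle value was 0.006, -0.051 and -0.025 on the arrays labelled induced, and 0.015, -0.011 and -0.003 on the noninduced arrays, so the groups overlapped. That difference of medians was 0.012 within the first fluidics run, where induced replicate 1 is the single treated array, and 0.008 without noninduced replicate 2.

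**Figure D2:**
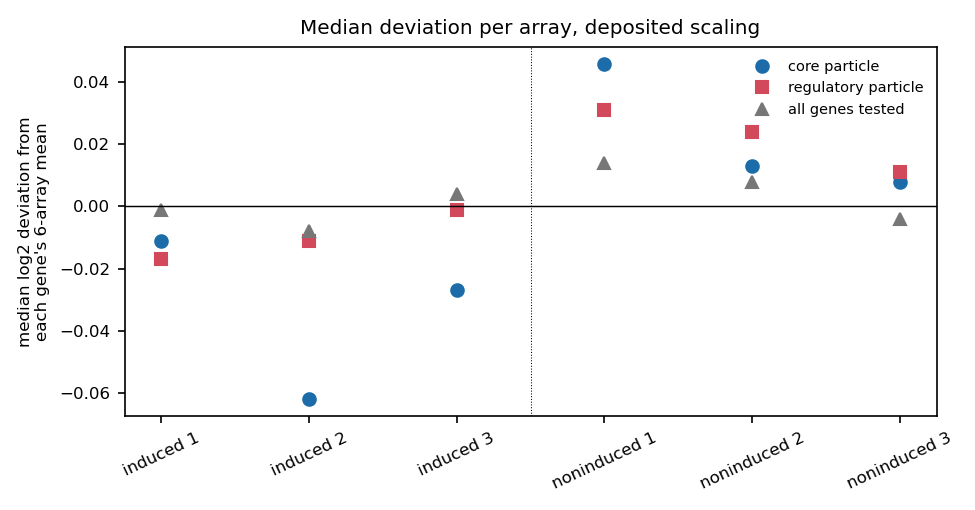
Median log2 deviation from each gene's own 6-array mean (y axis) on each array (x axis) for core particle genes, regulatory particle genes and all genes tested, in the deposited scaling. Core particle values are -0.062 to -0.011 on the arrays labelled induced and 0.008 to 0.046 on the noninduced arrays; those of all genes tested overlap between the groups.

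The 7 alpha ring genes tested lay on both sides of 0. Their log2 differences ran from -0.06 (Psma7) to 0.09 (Psma1), 4 positive and 3 negative, with a median of 0.01. Psma1 had signals of 2288, 2238 and 2060.2 on the arrays labelled induced, and 2179.8, 1889 and 2121 on the noninduced arrays. Those groups overlapped, with noninduced replicate 2 the lowest (0.09, SE 0.062, adjusted p = 0.531 in limma). Leaving that array out gave 0.03, run 1 by itself gave 0.15, and median centring gave 0.18. Psma7 had 2583, 2596 and 2547 on the arrays labelled induced, and 2724, 2614 and 2699 on the noninduced arrays. Its groups were apart by a narrow gap (-0.06, SE 0.043, limma adjusted p = 0.579; 0.04 after median centring). The interval of every alpha gene lay between -0.17 and 0.23.

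All 8 Psmb genes tested had a negative log2 difference in the deposited scaling, with a median of -0.06, and 52.2% of all genes tested were negative. After median centring 3 of the 15 core genes tested were negative (Psmb2, Psmb6 and Psmb10), against 3094 of all 10775 genes. Dimmer probe sets of Psmb1 (0.17), Psmb3 (0.04) and Psmb4 (0.27) were positive in the deposited scaling, and another of Psmb1 was negative (-0.09). The positive one of Psmb1 averaged 52.1 on the arrays labelled induced and 45 on the noninduced arrays. Its interval was -0.28 to 0.62. Psmb2, a beta ring subunit that does not cut peptide bonds, had 1878, 1822 and 1972 on the arrays labelled induced, and 2091, 2241 and 2082 on the noninduced arrays. Every array labelled induced was below every noninduced array, by a log2 difference of -0.18 (SE 0.051, 95% interval -0.29 to -0.06, limma adjusted p = 0.158). Leaving out 1 array gave -0.21 to -0.14. Psmb3, the structural beta gene with the highest difference, had 3875, 3784 and 3981 on the arrays labelled induced, and 4009, 3978 and 3858 on the noninduced arrays. Its groups overlapped (-0.03, SE 0.041; 0.07 after median centring, and -0.01 without induced replicate 2 or without noninduced replicate 1). Psmb1 was at -0.05 and Psmb4 at -0.07.

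The catalytic subunits of the constitutive core are Psmb5, with chymotrypsin-like activity and the main target of proteasome inhibitors, Psmb6, with caspase-like activity, and Psmb7, with trypsin-like activity. Psmb6 had signals of 2784, 2772 and 2849 on the arrays labelled induced, and 3169.6, 2941 and 2987 on the noninduced arrays. The groups did not overlap (-0.11, SE 0.045, limma adjusted p = 0.280). Psmb7 had 6379, 6304 and 6206 on the arrays labelled induced, and 6442, 6795 and 6463 on the noninduced arrays. Here too the groups were apart, by a gap smaller than the spread within either group (-0.06, limma adjusted p = 0.503; 0.03 after median centring). Psmb5 had 2643, 2485 and 2711 on the arrays labelled induced, and 2731, 2707 and 2602 on the noninduced arrays, and its groups overlapped (-0.04, limma adjusted p = 0.767; 0.06 after median centring, 0.00 without induced replicate 2, and -0.02 without noninduced replicate 1 or within the first run).

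The immunoproteasome subunits replace the catalytic ones in cells that respond to interferon. Psmb10 was the single one above the signal filter, with 149.7, 147 and 136 on the arrays labelled induced, and 168, 161 and 164 on the noninduced arrays. Its groups did not overlap (-0.17, SE 0.091, limma adjusted p = 0.410), and its signal was the lowest of the members tested. Psmb8 had 5.86, 14 and 7.66 on the arrays labelled induced and 4.05, 2.97 and 4.55 on the noninduced arrays. Psmb9 had 5.12, 21.8 and 19.4 on the arrays labelled induced and 11.6, 2.36 and 1.69 on the noninduced arrays. Both genes stayed under the filter on every array, so no fold or test is given. The tissue-specific core genes were dim as well: Psma8, of the testis, ranged from 0.638 to 9.06 and Psmb11, of thymic epithelium, from 0.733 to 21.5 over the 6 arrays.

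**Figure D3:**
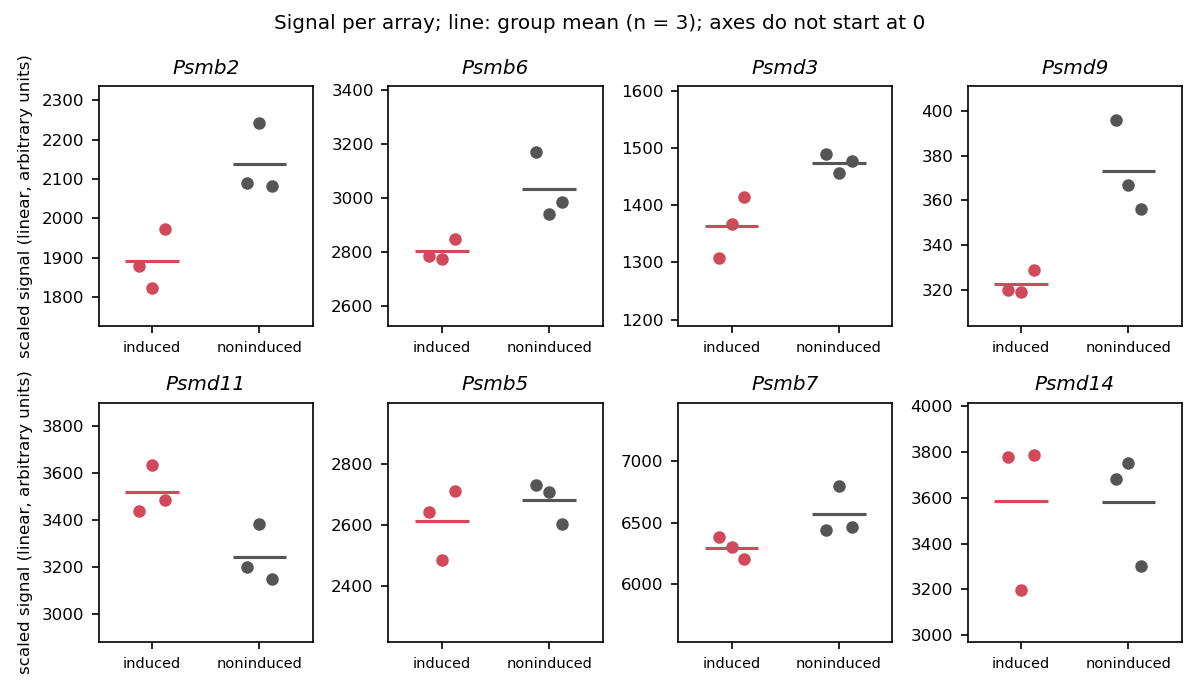
Scaled signal (y axis, linear) per array for 8 members, with arrays labelled induced left of noninduced arrays; points are arrays and lines group means (n = 3). The groups are apart for Psmb2, Psmb6, Psmd3, Psmd9 and Psmb7 (lower) and Psmd11 (higher), and overlap for Psmb5 and Psmd14.

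Promoters of 4 genes are shown because they hold letters of sites through which proteasome genes are known to be controlled. Promoter windows came from RefSeq (GRCm38.p6, 250 bases before to 50 after the start, 300 in all), and 32 of the 39 members had an entry. Capitals mark TGACNNNGC, the core letters of the antioxidant response element bound by NRF1 and NRF2, in the first 3, and TTCNNNGAA, the letters of the interferon gamma activated site, in Psmb8. Both strands were searched, and sequences are given 5′ to 3′ on the gene's own strand.
Psmb5 promoter, chr14:54617946-54618245, minus strand: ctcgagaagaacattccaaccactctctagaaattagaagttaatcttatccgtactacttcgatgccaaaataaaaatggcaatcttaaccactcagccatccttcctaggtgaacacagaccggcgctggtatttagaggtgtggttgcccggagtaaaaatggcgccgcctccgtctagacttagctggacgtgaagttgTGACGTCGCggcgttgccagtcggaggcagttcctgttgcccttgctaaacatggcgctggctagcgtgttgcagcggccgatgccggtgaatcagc
Psmb6 promoter, chr11:70525107-70525406, plus strand: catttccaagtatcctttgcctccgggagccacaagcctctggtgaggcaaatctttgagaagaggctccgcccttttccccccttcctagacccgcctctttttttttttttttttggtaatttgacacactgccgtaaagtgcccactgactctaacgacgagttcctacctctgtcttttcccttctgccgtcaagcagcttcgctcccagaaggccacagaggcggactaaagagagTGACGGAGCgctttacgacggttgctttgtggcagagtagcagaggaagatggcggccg
Psmd9 promoter, chr5:123227940-123228239, plus strand: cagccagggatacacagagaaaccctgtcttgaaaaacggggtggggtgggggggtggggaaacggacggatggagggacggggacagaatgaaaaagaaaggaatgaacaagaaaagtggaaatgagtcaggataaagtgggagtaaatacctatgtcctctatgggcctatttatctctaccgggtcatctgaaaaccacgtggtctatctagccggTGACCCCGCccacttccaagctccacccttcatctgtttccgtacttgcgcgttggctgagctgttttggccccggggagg
Psmb8 promoter, chr17:34197945-34198244, plus strand: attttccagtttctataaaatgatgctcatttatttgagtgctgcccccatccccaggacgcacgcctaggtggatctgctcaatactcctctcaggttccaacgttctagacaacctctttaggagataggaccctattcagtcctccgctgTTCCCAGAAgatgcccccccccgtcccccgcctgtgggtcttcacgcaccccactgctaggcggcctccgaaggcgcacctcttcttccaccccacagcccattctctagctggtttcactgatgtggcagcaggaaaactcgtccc

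The TGACNNNGC letters occurred in 5 of 32 member promoters (15.6%), against 14.0% of all 27025 genes with a promoter entry. The 5 were Psmb5, Psmb6, Psmc6, Psmd9 and Psmd12, with log2 differences of -0.04, -0.11, 0.04, -0.20 and -0.02 in that order. The CCAAT letters were in 13 (40.6%, against 41.1% of all genes) and TTCNNNGAA in 2 (6.25%, against 9.55%). The GC box letters GGCGGG were in 24 of the 32, against 37.9% of all genes; they were in 15 of 17 regulatory particle promoters and 9 of 15 core promoters. The Psmd9 match overlaps a GGCGGG match, and the other 3 marked matches overlap none of these motifs. A match is a description of the letters in the window and not a binding site.

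The ATPases of the base split evenly around 0, with 3 of 6 positive and a median of -0.01. Psmc1 was at 0.09, with every array labelled induced (1986 to 2016) above every noninduced array (1864 to 1894; limma adjusted p = 0.391). Psmc3 lay on the other side: 2566, 2562 and 2622 on the arrays labelled induced, and 2678, 2956 and 2682 on the noninduced arrays (-0.10, SE 0.050, limma adjusted p = 0.381; -0.05 without noninduced replicate 2). Psmc4 had 2439.6, 2137 and 1689 on the arrays labelled induced, and 2157, 1704 and 1799 on the noninduced arrays. Its groups overlapped widely, and the value of 0.14 (SE 0.120) depended on single arrays. Leaving out induced replicate 1 or 3 gave 0.02 and 0.28 in that order, and leaving out noninduced replicate 1 or 2 gave 0.24 and 0.07. Within the first fluidics run, or with the run as a block, it was 0.38. Psmc2, Psmc5 and Psmc6 were at -0.06, -0.08 and 0.04.

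The non-ATPase base subunits, which hold scaffolds and a ubiquitin receptor, had the smallest median absolute log2 difference of the roles tested (0.030). Psmd1, a scaffold, had 1976, 2023 and 2005 on the arrays labelled induced, and 1922, 2001 and 1919.7 on the noninduced arrays (0.04, SE 0.045; 0.13 after median centring and 0.02 within the first run). Psmd4, the ubiquitin receptor, had 1996, 1970.1 and 1960.3 on the arrays labelled induced, and 2045, 1873 and 2038 on the noninduced arrays (-0.01, SE 0.050; 0.09 after median centring). Both sets of values overlapped between the groups. The intervals of Psmd1, Psmd2 and Psmd4 lay between -0.11 and 0.14, that is, within -7.62% and 10.0%.

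In the lid 6 of 8 genes were negative, with a median of -0.06, and in 4 of them (Psmd3, Psmd6, Psmd7 and Psmd13) the arrays labelled induced were all below the noninduced arrays, as in 11.6% of all genes tested. After median centring 0 members of the whole family were in that position, against 3.24% of all genes tested. Psmd3, a scaffold of the lid, had 1308, 1368 and 1415 on the arrays labelled induced, and 1489.5, 1456 and 1478 on the noninduced arrays (-0.11, SE 0.050, limma adjusted p = 0.330; -0.17 within the first run). Psmd14, the metalloprotease that takes ubiquitin chains off substrates, had 3776, 3199 and 3785 on the arrays labelled induced, and 3683, 3753 and 3304 on the noninduced arrays. Its log2 difference was 0.00 with an interval of -0.15 to 0.15, and 1 low array in each group set its spread. Psmd11, the lid subunit whose level is known from human embryonic stem cells to set how much of the particle is assembled, had 3436, 3631 and 3483 on the arrays labelled induced, and 3202, 3381 and 3148 on the noninduced arrays. It stood above 0 with no overlap (0.12, SE 0.045, limma adjusted p = 0.270), but its other probe sets did not share the sign, as described below.

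Psmd5, Psmd9 and Psmd10 encode chaperones that help build the base and leave the finished particle. Psmd9 had the lowest log2 difference of all members, with 320.1, 319 and 329 on the arrays labelled induced, and 396, 367 and 356 on the noninduced arrays. Every array labelled induced was below every noninduced array (-0.20, SE 0.072, 95% interval -0.35 to -0.04, limma adjusted p = 0.240), and leaving out 1 array gave -0.23 to -0.16. Psmd5 had 833, 839 and 887 on the arrays labelled induced, and 782, 878 and 857 on the noninduced arrays, and its groups overlapped (0.02, SE 0.062; -0.01 within the first fluidics run). Psmd10, also known as the oncoprotein gankyrin, was at -0.11 with overlapping groups. Without these 3 the regulatory particle median was -0.016.

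When groups do not overlap, an exact two-sided permutation test gives p = 0.1, the smallest that 3 against 3 arrays allow. It therefore restates the lack of overlap and adds no evidence. Among members without overlap it was run for Psmb2, Psmb6, Psmb7, Psmb10, Psma7, Psmc3, Psmd3, Psmd9 and Psmd11 alone. Of all members tested, 34.3% were without overlap below and 8.57% above, against 11.6% and 10.7% of all genes tested.

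Probe sets of 1 gene did not always share a sign. How many of all genes tested have probe sets of both signs was not computed, so the members' count has no comparison. Of 16 members with several tested probe sets, 11 had both signs, and among the 60 member probe sets above the filter 0 passed the adjusted threshold (8, or 13.3%, had an unadjusted p under 0.05, against 14.7% of all probe sets tested). Psmd11 had 5: the brightest, of the _s kind, gave 0.12, while the others gave -0.03, -0.12, -0.19 and -0.19. The third brightest of those 4 had 542, 477 and 534 on the arrays labelled induced, and 546, 630.3 and 603 on the noninduced arrays, with no overlap in the opposite direction (unadjusted p = 0.0257 and adjusted p = 0.271 in limma). For Psmb4 the brightest probe set gave -0.07, and the dimmer one, of the _x kind, gave 0.27 (SE 0.11, limma adjusted p = 0.293) with 2409.8, 2786 and 1963 on the arrays labelled induced, and 2124, 1707 and 2075 on the noninduced arrays. Psmc4 had 0.14 with its brightest probe set and -0.10 with the other, and the dimmer one had the smaller SE (0.051 against 0.120). For Psmc2 both tested probe sets were negative: the dimmer one had 3591, 3484 and 3668 on the arrays labelled induced, and 3905, 3934 and 3877 on the noninduced arrays (-0.12, SE 0.041, limma adjusted p = 0.202). In the remaining 8 genes with both signs (Psma1, Psma5, Psmb1, Psmb3, Psmd4, Psmd6, Psmd7 and Psmd13) the other probe sets ran from -0.39 (Psmd4) to 0.17 (Psmb1). The interval of each of these other probe sets included 0. Both end values came from dim probe sets, with induced and noninduced means of 34 and 50.2 (Psmd4) and 52.1 and 45 (Psmb1). The opposite signs of Psma1, Psmd7 and Psmd13 were also from dim probe sets. Those of Psma5, Psmb3 and Psmd6 were from brighter ones, as was 0.01 for Psmd4. The signs of these 8 genes are therefore no evidence that their probe sets disagree. The suffixes _s and _x are given by the array's maker to probe sets whose probes may match more than 1 transcript sequence, and whether that bears on these signs was not tested.

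**Figure D4:**
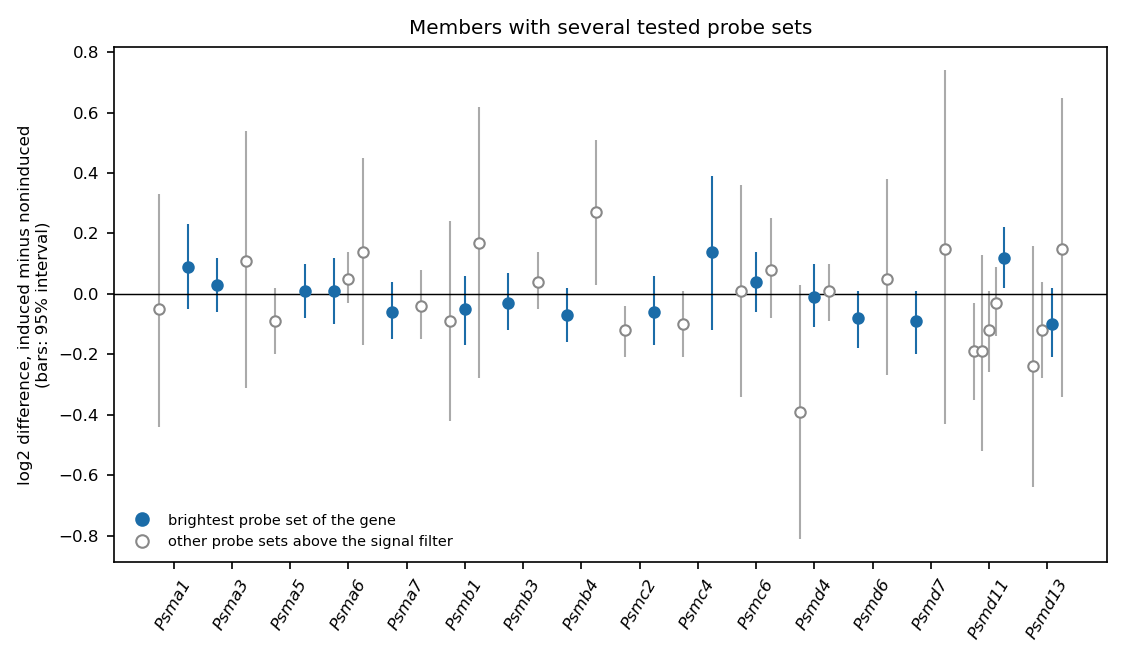
Log2 difference (y axis, induced minus noninduced, bars 95% intervals) of every tested probe set of the 16 members that have several; filled points are the brightest probe set of the gene. Psmd11 is at 0.12 with its brightest probe set and at -0.19 to -0.03 with the others, and Psmb4 at -0.07 and 0.27.

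Genes that work around the proteasome were taken from lists of its partners, and 1 of them, Uba6, passed the test over all probe sets. Uba6, which activates ubiquitin and the ubiquitin-like FAT10, rose to 646 on the arrays labelled induced, against 471 on the noninduced arrays (mean signals; log2 0.44, SE 0.062, limma adjusted p = 0.0151). Every array labelled induced was above every noninduced array. Its 3 other tested probe sets gave 0.15, -0.02 and -0.10, each with overlapping groups. Its adjusted p was no longer under 0.05 with a block for the fluidics run or for the replicate number, within run 1 alone, with no signal filter, without a variance trend, or without induced replicate 1 or 2 or noninduced replicate 2 or 3, nor with the mean over its probe sets (0.05); the value stayed between 0.42 and 0.48 when 1 array was left out.

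Among activators and inhibitors (4 tested, 0 past the adjusted threshold), Psme4, a cap that opens the core without ATP, was at 0.19 (limma adjusted p = 0.216) and Psmf1, an inhibitor of the core, at -0.18 (adjusted p = 0.235). Their groups did not overlap in either case, and Psmf1 was at -0.09 after median centring. The other probe sets of Psmf1 gave -0.13, 0.04 and -0.24. All 3 tested probe sets of Psme4 were positive (0.16, 0.19 and 0.33), and the highest had a limma adjusted p of 0.108. Among core assembly factors (5 tested, 0 passed), Pomp, the maturation factor that helps place the beta subunits, averaged 2071 on the arrays labelled induced and 2384 on the noninduced arrays. Its log2 difference of -0.20 (SE 0.049, limma adjusted p = 0.111) had an interval of -0.31 to -0.09 and was -0.11 after median centring. The chaperone gene Psmg3 was at -0.14, with -0.09 without induced replicate 1, -0.04 after median centring and -0.23 within the first run.

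Of 9 receptors, deubiquitinases and associated proteins tested, 0 passed. Ubqln2, a shuttle that carries ubiquitylated proteins to the proteasome, was at 0.24 (limma adjusted p = 0.212) with overlapping groups, Ecpas, a proteasome scaffold, at 0.15 and Rad23b, another shuttle, at 0.11. Dimmer probe sets had the opposite sign for Ubqln2 (-0.22) and Rad23b (-0.17). Ecpas was at 0.09 without induced replicate 3 or without noninduced replicate 1. In the list of NRF1 and NRF2 regulators, 0 of 8 passed and 6 were positive, with a median of 0.09. Nfe2l1, the gene of NRF1, was at 0.17 (adjusted p = 0.461) with overlapping groups. Leaving out induced replicate 1 or 2 gave 0.10 and 0.27 in that order, leaving out noninduced replicate 1 gave 0.08, and run 1 by itself gave 0.31. Nfe2l2, the gene of NRF2, was also at 0.17 (adjusted p = 0.217) with groups apart, and at -0.06 as the mean of its probe sets. Mafg, a small Maf partner of both, was at 0.20 (adjusted p = 0.348).

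Of 7 antigen presentation and interferon genes tested, 0 passed. B2m, the light chain of class I molecules, averaged 1997 on the arrays labelled induced and 1655 on the noninduced arrays (0.27, limma adjusted p = 0.115). After median centring it was at 0.37 and did pass the adjusted threshold, in a fit that called 306 probe sets in all. Its dimmer probe set gave 0.10, and leaving out noninduced replicate 2 gave 0.19. Irf1, a transcription factor that drives immunoproteasome genes, was at -0.23 (adjusted p = 0.258), with every array labelled induced below every noninduced array. It was -0.15 without induced replicate 3, -0.13 after median centring and -0.10 within the first run. The peptide transporter gene Tap1 and the regulator Nlrc5 were below the signal filter, as Psmb8 and Psmb9 were.

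**Figure D5:**
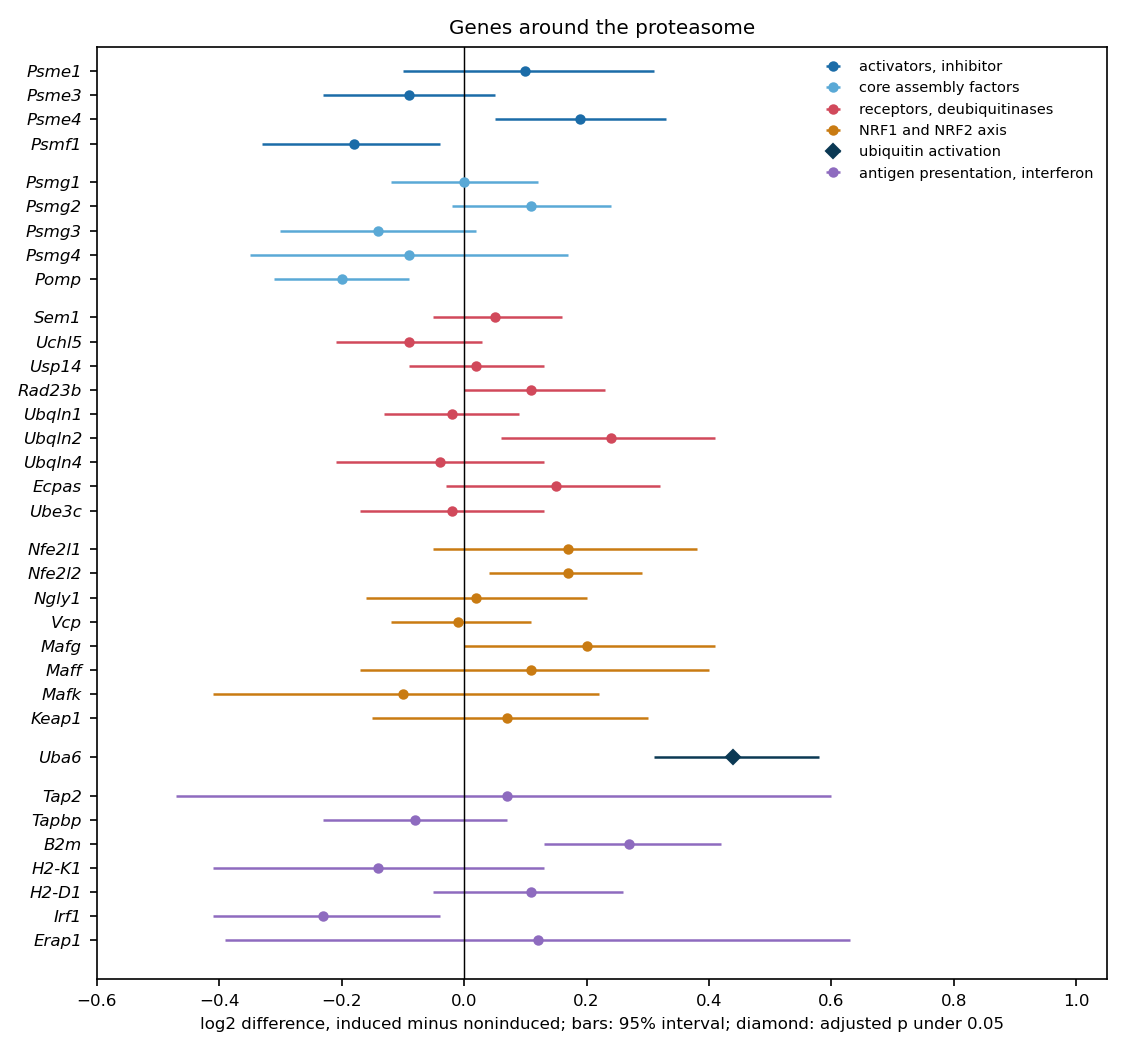
Log2 difference (x axis, induced minus noninduced, bars 95% intervals) of the tested genes around the proteasome, grouped by list down the page; the diamond marks an adjusted p under 0.05 in limma. Uba6 at 0.44 is the single diamond; Pomp lies at -0.20 and B2m at 0.27.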

How the data were processed

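Total RNA of 6 C2C12 samples was labelled with biotin and hybridised to 1 Mouse430_2 array each, per the file headers and the labels. From the scans the authors made 1 linear intensity for every probe set (GCOS 1.1.1 is named in the submitters' processing notes), and these were the values deposited. On each of the 6 arrays the trimmed mean (2% off both ends) was 150.0, so values are relative to the whole array, and detection calls were not used here. The fluidics run was inferred from the hybridisation times in the headers of the instrument records (unit other). A gap of over 30 minutes between arrays was taken to start a new run. Array number limits the precision.

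The 64 control probe sets were set aside, and 45037 were left. Genes were named from the 34945 probe sets that the platform annotation pairs with 1 gene. All 22518 probe sets whose mean signal exceeded 23.4 were tested on log2(signal + 16), a scale that understates changes of dim probe sets, with limma 3.58.1 under R 4.3.3; eBayes used a trended prior, and p-values were Benjamini-Hochberg adjusted over them all (threshold 0.05). Exact permutation tests used scipy 1.17.1. The steps were tested on simulated data.

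Values per array are given for members past the adjusted or an unadjusted threshold of 0.05, for the highest and lowest of each role, and for catalytic, immunoproteasome and deubiquitinating subunits; further probe sets of a gene are given where their sign differs. Psmc1 and the dimmer Psmc2 probe set were chosen after their values were seen. Partner genes are those past either threshold and the 2 largest changes of each list. Members and lists were chosen with earlier results of these data known. Alternatives were median centring or quantile normalization, a filter at the 75th percentile or none, a pseudocount of 1 or 64, a constant prior variance, blocks for replicate number or fluidics run, run 1 alone, averaged probe sets and leaving out each array. The probe sets without _s or _x suffixes and the regulatory particle without chaperones were added after the data were seen.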

Additional observations from a re-analysis of the deposited data

How the results depend on the processing

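In all 18 alternatives 0 subunit genes passed the adjusted threshold. The filters, the constant prior variance and the replicate block cannot move a fold, and the fluidics block and run 1 alone give the same fold. After median centring the medians were 0.045 (all), 0.039 (core) and 0.067 (regulatory), because that centring lifts all genes tested by about as much (median 0.08 in place of -0.01); Psma7 was at 0.04, Psmb3 at 0.07, Psmb5 at 0.06, Psmb7 at 0.03 and Psmd4 at 0.09. With a block for fluidics run, or in run 1 by itself (both compare induced replicate 1 with the noninduced arrays), the medians were -0.027 (all), -0.027 (core) and -0.038 (regulatory), the difference of medians was 0.012, Psmd4 was at 0.01 and Psmd5 at -0.01. The regulatory particle median was -0.015 with probe sets averaged per gene, -0.016 without assembly chaperones and -0.060 without _s and _x probe sets, where the difference of medians was 0.006 and Psmd11 was at -0.12. With the mean of probe sets Psma1 was at 0.00, Psmb3 at 0.01, Psmd9 at 0.00, Psmd11 at -0.13 and Nfe2l2 at -0.06; that mean includes probe sets below the signal filter. Psmd14 was at -0.01 with quantile normalization. Leaving out 1 array gave -0.058 to -0.019 (all), -0.059 to -0.023 (core), -0.044 to -0.017 (regulatory), -0.030 to 0.008 (difference of medians), -0.06 to 0.08 for Psmd14, -0.05 to 0.02 for Psmd4 and -0.02 to 0.06 for Psmd5, with 0 members called each time. The cause of these shifts was otherwise not tested.

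Same-numbered arrays did not deviate together (correlations of 0.01, -0.06 and -0.01 for replicates 1, 2 and 3). Such correlations cannot show whether the samples were prepared in pairs, and the labels name no pairing. With the replicate block the medians and signs of members were as reported, 0 members passed (smallest adjusted p 0.268), and over all probe sets 5 were called in place of 45. Over all probe sets the calls were 0 to 50 when 1 array was left out, 306 after median centring, 102 with the filter at the 75th percentile, 1 with no filter, 21 of the genes with the mean of probe sets, and 0 without a variance trend, with a fluidics block or run 1 by itself; for members the unadjusted threshold of 0.05 was passed by 3 in each of these last fits, against 5 in the fit reported. Dim genes such as Psmb8 and Psmb9 have no usable fold at these signals.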
